A study of Mus musculus with 6 samples.

Results

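Transcripts of 37 lysosomal genes were compared between 2 fractions of endothelial cells from mouse embryos, and all 37 genes, of 23420 in the count table, were found by gene symbol and were abundant enough to test. The genes comprise 13 cathepsins and other peptidases, 9 glycosidases and sulfatases, 5 genes of lipid breakdown or its cofactors, 9 lysosomal membrane or proton pump genes, and the regulator Tfeb. All embryos were at embryonic day 12.5 and carried both Csf1r-iCre, a Cre recombinase under the promoter of the myeloid receptor gene Csf1r, and a RosatdTomato reporter, so that tdTomato marks cells with present or past Cre activity. The sort, from whole embryos, took cells with the endothelial protein PECAM1 but without CD45, CD11b or KIT, which mark blood cells, and split them by tdTomato, giving 3 tdTom+ and 3 tdTom- libraries. Both fractions can therefore mix vessels of different organs, in shares that were not measured. Per the protocol each of 3 embryos gave cells to both fractions, while the labels tie no replicate number to an embryo. The tdTomato label reports the history of the Csf1r promoter rather than a cell type. By its title, the study is about an endothelial contribution of erythro-myeloid progenitors.

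The lysosome is the acidic compartment in which cells degrade proteins, glycans and lipids taken up from outside or delivered by autophagy. Its hydrolases are made in the secretory pathway and mostly sorted by mannose 6-phosphate, a V-type ATPase pumps in the protons they need, and heavily glycosylated membrane proteins line the inside of its membrane. Endothelial cells use it to break down endocytosed cargo, most of all the scavenging sinusoidal endothelium of the liver, while macrophages are known for high levels of many of the same genes. TFEB, TFE3, MITF and TFEC form a family of transcription factors, of which TFEB is the best known activator of lysosomal genes through an E-box in their promoters.

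That E-box core, CACGTG, was searched in the 300 bases from 250 before to 50 after each RefSeq start site (GRCm38.p6, the build also named mm10). The core reads the same on both strands. It was present for 12 of the 31 lysosomal genes with a promoter in the table used, or 38.7%, against 8.09% of 27025 genes and 8.91% of 17491 coding genes with a promoter there. A flanked form, TCACGTG on either strand, which contains the core, was present for 10 of the 31 genes (32.3%) and 4.29% of all genes. The full palindromic CLEAR element, which contains both shorter forms, was found for 0 of the 31 and 0.37% of all genes. Median GC content was 56.3% over the 36 windows of the lysosomal genes and 52.7% over all 32851 windows. Ctsb, Ctsh, Galns, Npc1, Asah1 and Atp6v1h were the members without a promoter in the table.

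The 19 matches belonged to Ctsa, Ctsd, Ctsf, Ctsl, Lgmn, Gla, Glb1, Gaa, Naglu, Lamp1, Mcoln1 and Atp6v0d1, and 13 of them lay within 100 bases before the start. Lamp1 had 4 matches, starting 61, 45, 28 and 15 bases before its start. Ctsd had 2, starting 245 and 98 bases before it. For some windows the GENCODE start of the gene lies further upstream than the RefSeq start, and 7 matches, in 6 genes, lie within the GENCODE gene. These are both matches of Ctsa, those of Ctsl, Lgmn and Naglu, that of Ctsd 98 bases before the RefSeq start and that of Mcoln1 45 bases before it. Ctsa and Lgmn also have a RefSeq start further upstream, whose window holds no match. Both genes are thus counted only through a RefSeq start inside the gene. Printed here are the bases before the start of Ctsd, which rose in tdTom+ cells, of Lamp1, which has the most matches and did not pass the test, of Lamp2, which passed with the replicate block and with DESeq2, and of Ctsk, which fell. Each runs 5′ to 3′ along the gene's own strand, with the E-box core in capitals, and holds 250 bases except that of Ctsd. For Ctsd the 39 bases before the first GENCODE exon are shown, since the other 211 are annotated as exonic, and they hold the match 245 bases before the RefSeq start. The positions are chr7:142388039-142388077 on the minus strand for Ctsd, chr8:13158911-13159160 on the plus strand for Lamp1, chrX:38456461-38456710 on the minus strand for Lamp2 and chr3:95498960-95499209 on the plus strand for Ctsk. The windows of Lamp2 and Ctsk hold no match.
Ctsd: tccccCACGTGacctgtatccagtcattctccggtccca
Lamp1: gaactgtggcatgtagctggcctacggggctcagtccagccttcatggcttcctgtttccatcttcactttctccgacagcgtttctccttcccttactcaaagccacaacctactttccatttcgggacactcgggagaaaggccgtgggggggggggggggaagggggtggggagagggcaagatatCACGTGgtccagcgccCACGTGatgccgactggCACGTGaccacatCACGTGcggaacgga
Lamp2: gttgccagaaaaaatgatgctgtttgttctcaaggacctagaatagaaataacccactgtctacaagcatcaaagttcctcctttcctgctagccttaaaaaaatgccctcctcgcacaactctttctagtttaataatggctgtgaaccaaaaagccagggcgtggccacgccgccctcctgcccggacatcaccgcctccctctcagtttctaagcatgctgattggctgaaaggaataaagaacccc
Ctsk: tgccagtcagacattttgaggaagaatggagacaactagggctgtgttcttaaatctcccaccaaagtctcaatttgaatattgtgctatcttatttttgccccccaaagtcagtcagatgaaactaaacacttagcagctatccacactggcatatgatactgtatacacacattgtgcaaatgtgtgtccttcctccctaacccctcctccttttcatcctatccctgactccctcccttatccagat

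**Figure D1:**
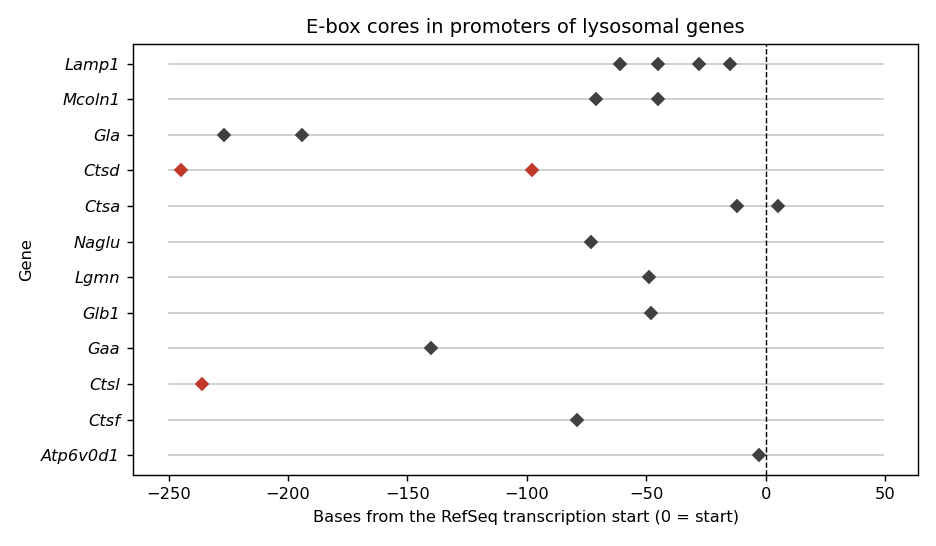
Positions of the E-box core in the promoters of 12 lysosomal genes, as bases from the RefSeq start at 0. Each grey line is a 300-base window, each diamond the first base of a match, with Ctsd and Ctsl in red. 13 of 19 matches lie within 100 bases before the start.

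The libraries held 8919887 to 11767956 counts each, and levels are given as CPM, counts relative to the size of the library, with sizes scaled by TMM, which corrects for differences in composition. Pecam1, the gene of the sorted protein, had 769 to 882 CPM in tdTom+ and 890 to 960 CPM in tdTom- libraries, and these ranges did not overlap. Cdh5, for the junction protein VE-cadherin, ranged from 536 to 567 CPM in tdTom+ and from 435 to 535 CPM in tdTom- libraries, also without overlap. Of 12 endothelial markers, all tested, 0 passed the threshold given next, and Pecam1 alone had an unadjusted p under 0.05. Differences were tested with edgeR's quasi-likelihood F-test over 13142 genes, and a gene passed with a Benjamini-Hochberg adjusted p below 0.05. All fold changes are log2 values and stand above 0 where tdTom+ cells had the higher level. The labels do not say that libraries of 1 group are separate embryos, and p-values measure the spread between these libraries. In sorted bulk RNA, fewer cells of a type and less RNA per cell cannot be told apart.

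Most lysosomal genes did not pass the test, which used no replicate block, and the 3 that did were all cathepsins. Ctsd and Ctsl were higher and Ctsk was lower in tdTom+ cells, so 2 of 37 genes rose (0.769% of all genes tested rose), 1 fell (0.814%) and 34 did not pass. With replicate numbers as a block Lamp2 also rose (edgeR's adjusted p = 0.0266), and 2.24% of all genes tested passed. Without the block, 8.11% of the members passed, against 1.58% of the genes tested. That share rests on 3 genes, and the members were chosen with earlier results of these data known. At an unadjusted p under 0.05, 3 lysosomal genes were higher (4.76% of all genes tested) and 3 lower (5.94%), against 10.7% of all genes in either direction. The groups did not overlap for 4 lysosomal genes with tdTom+ above (7.88% of all genes tested) and for 2 with tdTom+ below (9.35%). The 37 fold changes had a median of 0.02, against -0.000263 over all genes tested, and 23 were above 0 (50% of all genes tested). Without tdTom+ replicate 2, 13 were above 0 and the median was -0.03. The 95% interval of the fold change lay within 1.5-fold in both directions for 25 of the 37 genes (67.6%), and for 48% of all genes tested. The other 12 intervals reached further, among them those of Ctss, Ctsf, Ctsk, Npc1, Scarb2, Gla and Tfeb.

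**Figure D2:**
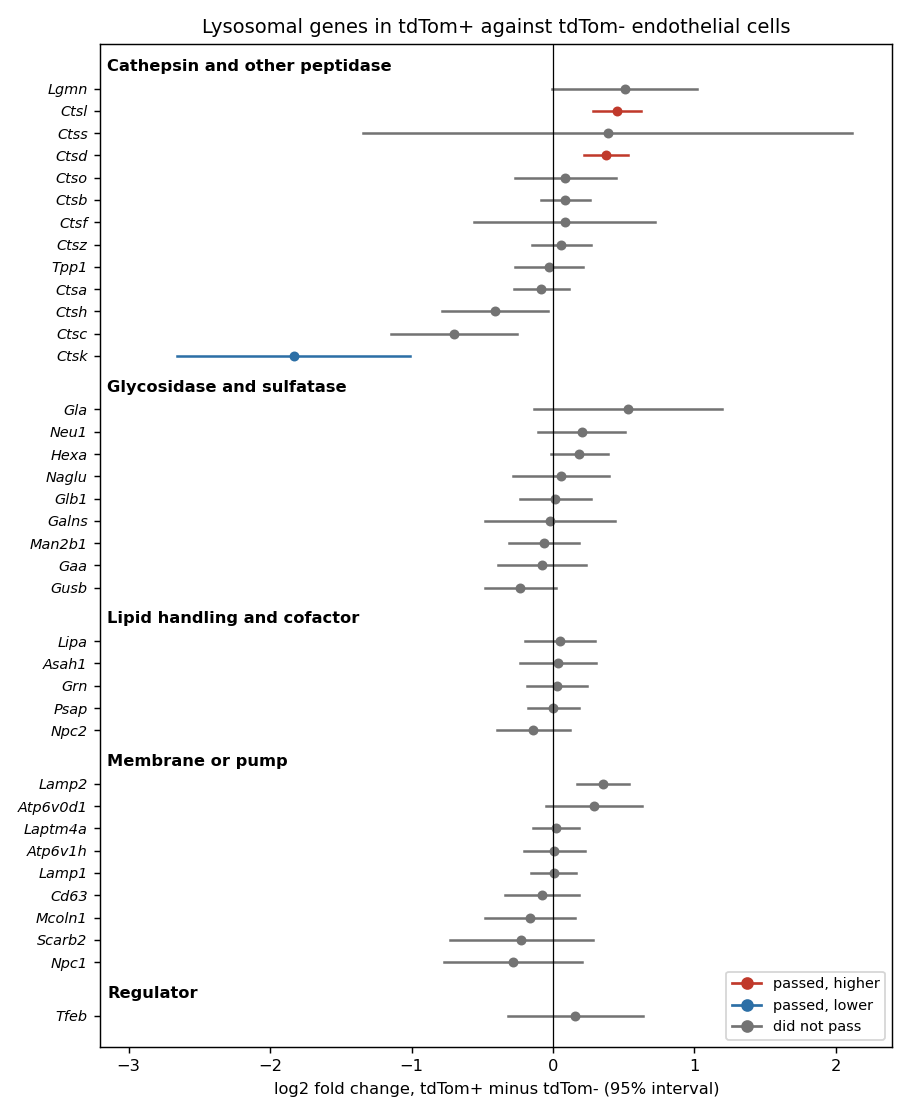
Log2 fold change of each lysosomal gene, tdTom+ minus tdTom-, by role. Points are edgeR estimates and lines their 95% intervals, red for the 2 genes that rose (Ctsd and Ctsl), blue for the 1 that fell (Ctsk) and grey for the 34 that did not pass.

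**Figure D3:**
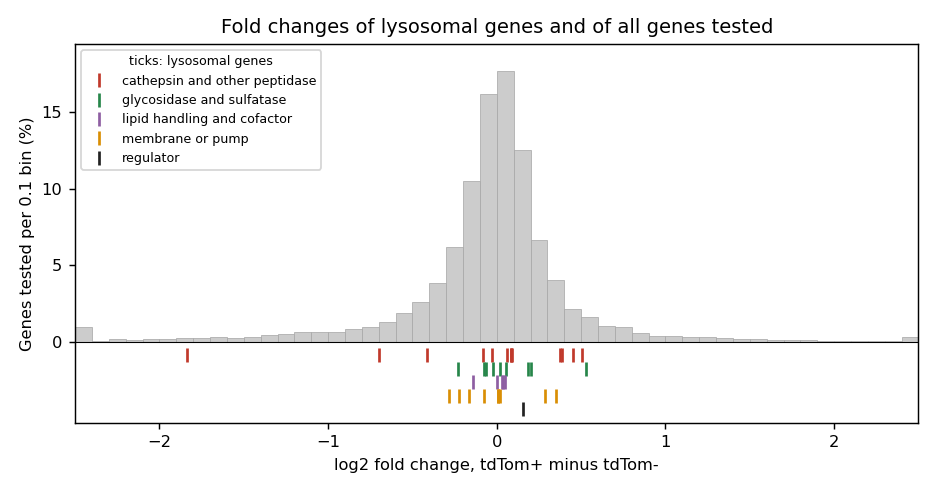
Distribution of the log2 fold changes of all 13142 genes tested, as the percentage of genes per bin of 0.1, with ticks below the axis for the lysosomal genes by role. The outermost bins also hold all values beyond them. Ctsk is the tick furthest to the left, at -1.83.

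Among the peptidases, Ctsd encodes cathepsin D, the main aspartic protease of the lysosome (chromosome 7, 142375911 to 142388038, mm10). It had 6265, 6025 and 5707 counts in tdTom+ and 4146, 4748 and 4068 in tdTom- libraries. Scaled to depth, its level was 550, 552 and 534 CPM in tdTom+ replicates 1 to 3 and 402, 402 and 455 CPM in tdTom- replicates 1 to 3. The lowest tdTom+ library lay above the highest tdTom- library. Mean levels were 545 ± 9.87 and 420 ± 30.8 CPM (SD, n = 3), a 1.30-fold rise, or 0.38 ± 0.07 in log2 (SE, edgeR's adjusted p = 0.0271). The call ended without tdTom+ replicate 1 (edgeR's adjusted p = 0.079) or 2 (0.0755) and without tdTom- replicate 1 (0.171) or 2 (0.12).

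Ctsl encodes cathepsin L, a cysteine protease of the papain family (chromosome 13, 64359337 to 64370890). Counts were 4459, 4724 and 4308 against 3255, 3562 and 2493. Scaled, it was at 391, 432 and 403 CPM in the tdTom+ libraries and at 316, 302 and 279 CPM in the tdTom- libraries. The groups did not overlap here either. The means of 409 ± 21.3 and 299 ± 18.5 CPM (SD, n = 3) gave a 1.37-fold rise and a log2 fold change of 0.45 ± 0.08 (SE, edgeR's adjusted p = 0.0163). Its call ended without tdTom+ replicate 2 (edgeR's adjusted p = 0.0523) and without tdTom- replicate 1 (0.0538), 2 (0.0658) or 3 (0.0899). Part of the exonic bases of both genes, 34.4% for Ctsd and 26.9% for Ctsl, is shared in GENCODE with other gene models. These are Gm49369 for Ctsd and Gm49230 and Gm47123 for Ctsl. If the annotation used for counting held these models, reads there could not be assigned to 1 model with certainty. Whether it held them was not checked. Other gene models also share 17.4% of the exonic bases of Ctsa, 12.8% of those of Ctsb and 12.8% of those of Hexa.

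Ctsk encodes cathepsin K, the collagen-degrading protease best known from bone-resorbing osteoclasts (chromosome 3, 95499256 to 95509362). It was among the least abundant lysosomal genes, with 39, 29 and 39 counts in the tdTom+ libraries and 140, 161 and 67 in the tdTom- libraries. Scaled to depth this was 3.42, 2.65 and 3.65 CPM against 13.6, 13.6 and 7.501 CPM. All tdTom+ libraries lay below the lowest tdTom- library, replicate 3. The level was 3.57-fold lower in tdTom+ cells, a log2 difference of -1.83 ± 0.37 (SE, edgeR's adjusted p = 0.0375). The replicate block, which compares libraries of the same number, kept the call (edgeR's adjusted p = 0.0496). The call ended with limma-voom (adjusted p = 0.0835), without tdTom+ replicate 1 (edgeR's adjusted p = 0.0857) or 2 (0.0819), and without tdTom- replicate 1 (0.24), 2 (0.244) or 3 (0.0726).

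Markers of mesenchyme, the connective tissue around vessels, were below 0 in fold change for 8 of 8 genes, with 0 passing (Lum fell with the replicate block, edgeR's adjusted p = 0.0213). Their summed level was 119, 93.2 and 345 CPM in tdTom+ replicates 1 to 3 and 585, 187 and 314 CPM in tdTom- replicates 1 to 3, so that the groups overlapped. The part of mesenchymal RNA in the Ctsk difference was not tested.

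A pair of further cathepsins had lower means in tdTom+ cells without passing. Ctsc encodes cathepsin C, a dipeptidyl peptidase that activates the serine proteases of blood cell granules. It had 250, 208 and 307 counts against 406, 497 and 282. Its levels were 21.9, 19.0 and 28.7 CPM in tdTom+ and 39.4, 42.1 and 31.6 CPM in tdTom- libraries, with no overlap. Its log2 fold change was -0.70 ± 0.20 (SE, edgeR's adjusted p = 0.151). Ctsh, which encodes the aminopeptidase cathepsin H, had 712, 856 and 537 counts against 775, 1155 and 723, or 62.5, 78.4 and 50.2 CPM in tdTom+ and 75.2, 97.8 and 80.9 CPM in tdTom- libraries. These ranges overlapped, although each tdTom+ library was below the tdTom- library of the same number, and the difference of -0.41 ± 0.17 (log2, SE) did not pass (edgeR's adjusted p = 0.396).

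The other peptidases differed less between fractions or varied more within them. Lgmn encodes legumain, an asparaginyl endopeptidase that processes cathepsins. It was at 110, 60.5 and 93.7 CPM in tdTom+ and 70.5, 43.9 and 72.0 CPM in tdTom- libraries, so that replicate 2 was the lowest in both groups and each tdTom+ library exceeded its same-numbered one. The log2 fold change was 0.51 ± 0.23 (SE, edgeR's adjusted p = 0.477, and 0.0735 with the replicate block). Ctsb, Ctsz and Ctso, further papain family proteases, had log2 fold changes of 0.09, 0.06 and 0.09. Ctsa, a serine carboxypeptidase that protects other hydrolases, and Tpp1, a tripeptidyl peptidase, had values of -0.08 and -0.03. Ctsf, another papain family protease, was at 0.08 with an interval from -0.56 to 0.72. Ctss, a protease typical of macrophages, had 24, 14 and 14 counts in tdTom+ and 6, 12 and 18 in tdTom- libraries. At that depth only a large difference in Ctss could have been detected, and the interval ran from -1.34 to 2.12.

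**Figure D4:**
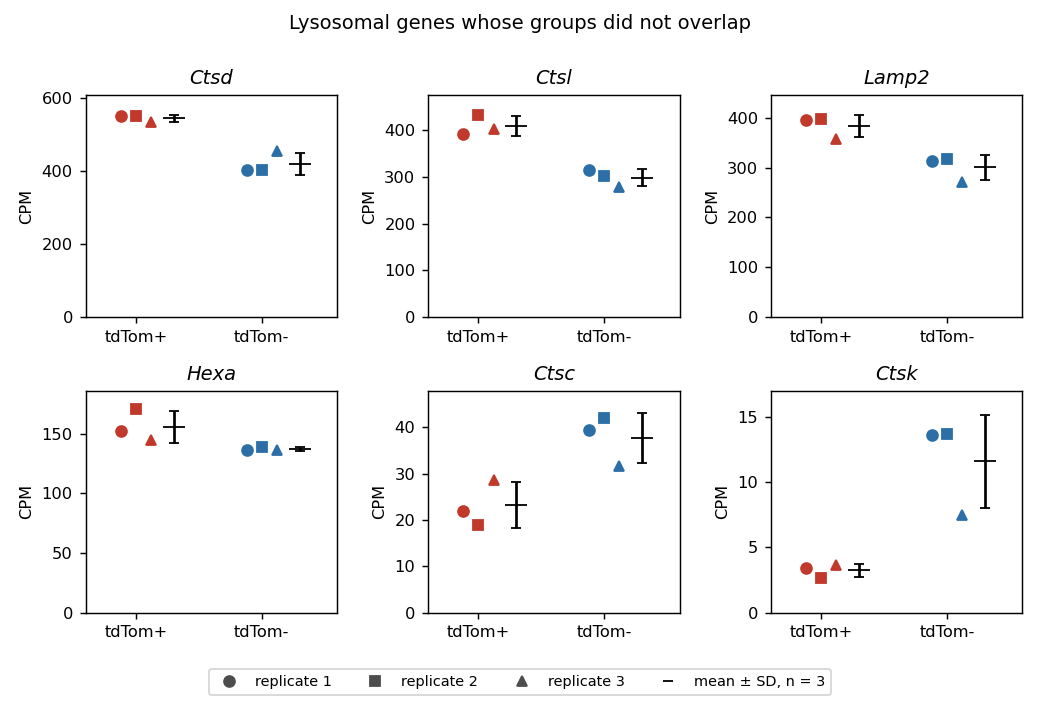
CPM per library of the 6 lysosomal genes, of 37, whose groups did not overlap, as was so for 17.2% of all genes tested. Symbols mark replicates 1 to 3, and black bars the mean ± SD (n = 3). Each axis starts at 0. Ctsd, Ctsl, Lamp2 and Hexa were higher in all tdTom+ libraries, Ctsc and Ctsk lower.

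Per kilobase of the principal GENCODE transcript, Ctsd and Ctsz were the most abundant cathepsins, and Ctss the least. In tdTom+ cells Ctsd stood at 256 ± 4.64 and Ctsz at 225 ± 27.7 CPM per kb (SD, n = 3), values that differed by about the spread of Ctsz. In tdTom- cells the order was reversed, with 197 ± 14.5 for Ctsd and 216 ± 12.6 CPM per kb for Ctsz (SD, n = 3), again close together beside their spread. Ctsl came to 207 ± 10.8 and 152 ± 9.37 CPM per kb (SD, n = 3) with its shorter principal transcript, but to 66.3 and 48.4 CPM per kb with the longer one. Its place in the order therefore depends on the transcript used. Ctsb followed with 111 ± 10.5 and 105 ± 2.35, while Ctsk had 2.14 ± 0.344 and 7.65 ± 2.33 and Ctss 1.15 ± 0.345 and 0.889 ± 0.542 CPM per kb (SD, n = 3). The 13 peptidases together had 2358, 2500 and 2244 CPM in the tdTom+ and 2128, 2064 and 2157 CPM in the tdTom- libraries. This sum did not overlap between groups. Without Ctsd and Ctsl it was 1418, 1516 and 1308 against 1410, 1361 and 1423 CPM, and the groups overlapped.

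None of the 9 genes for breakdown of glycans passed, with fold changes from -0.23 for Gusb to 0.53 for Gla and a median of 0.02. Hexa encodes the alpha subunit of beta-hexosaminidase, which removes terminal sugars from gangliosides. Its counts were 1739, 1862 and 1546 against 1402, 1641 and 1218. It was at 153, 170 and 145 CPM in tdTom+ and 136, 139 and 136 CPM in tdTom- libraries. The groups did not overlap, as in 17.2% of all genes tested, but the difference was small, at 0.18 ± 0.09 on the log2 scale (SE, edgeR's adjusted p = 0.526). Gla encodes alpha-galactosidase A and lies on the X chromosome. It had the largest fold change of the glycosidases, 0.53 ± 0.30 (SE, edgeR's adjusted p = 0.609), with overlapping levels of 41.8, 18.5 and 37.8 against 27.3, 24.5 and 16.0 CPM.

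Neu1, a sialidase that works in a complex with the product of Ctsa, had a log2 fold change of 0.20 and was higher in tdTom+ cells in all 3 same-numbered comparisons. Gusb, beta-glucuronidase, was lower in all 3, at -0.23. The beta-galactosidase gene Glb1, also part of that complex, differed by 0.02. Fold changes were -0.08 for Gaa, which degrades glycogen, 0.06 for Naglu, an enzyme of heparan sulfate breakdown, -0.02 for Galns, a sulfatase of keratan sulfate, and -0.06 for the mannosidase gene Man2b1. Summed, the glycan enzymes were at 629 to 647 CPM in tdTom+ and 610 to 636 CPM in tdTom- libraries, which overlapped.

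The 5 genes of lipid handling lay closest together, with fold changes from -0.14 to 0.05 on the log2 scale, and 0 passed. Psap encodes prosaposin, the precursor of the saposins that present sphingolipids to their hydrolases. It was at 324, 348 and 336 CPM in tdTom+ and 371, 313 and 321 CPM in tdTom- libraries, with an interval for the fold change from -0.18 to 0.18. Grn, for progranulin, a partner of prosaposin, had a fold change of 0.03. Lipa, the acid lipase of cholesteryl esters, and Asah1, acid ceramidase, had fold changes of 0.05 and 0.04. Npc2, which hands cholesterol to the membrane protein encoded by Npc1, was at -0.14. All 5 intervals lay within 1.5-fold in both directions.

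Of the membrane and pump genes, Lamp2 alone had an unadjusted p below 0.05. LAMP2 is a major glycoprotein of the lysosomal membrane, and its isoforms serve autophagosome fusion and chaperone-mediated autophagy (chromosome X, 38401357 to 38456454). It had 4505, 4340 and 3825 counts against 3221, 3752 and 2418. Its levels were 395, 397 and 358 CPM in tdTom+ and 312, 318 and 271 CPM in tdTom- libraries. The groups did not overlap, and replicate 3 was the lowest in both. Mean levels of 383 ± 22.3 and 300.2 ± 25.7 CPM (SD, n = 3) differed by 0.35 ± 0.08 on the log2 scale (SE) and missed the threshold (edgeR's adjusted p = 0.0726). With the replicate block the difference passed (edgeR's adjusted p = 0.0266), as it did with DESeq2 (adjusted p = 0.00618), and with the block 2.24% of all genes passed. The authors' deposited table holds their own comparison of the same counts, and the processing notes name DESeq2, so it is not separate support. That table lists Lamp2 with an adjusted p of 0.0062 and, in all, 3 lysosomal genes as higher and 1 as lower in tdTom+ cells. Of the 15135 genes with an adjusted p there, 211 were higher and 291 lower, the same numbers that DESeq2 gave here.

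Lamp1, the other abundant membrane glycoprotein gene, did not pass. It was at 480, 547 and 493 CPM in tdTom+ and 505, 484 and 525 CPM in tdTom- libraries. The interval of its fold change ran from -0.15 to 0.17, and that of Laptm4a, a small membrane protein, from -0.14 to 0.18. Among the remaining genes, the tetraspanin gene Cd63 had a log2 fold change of -0.08, Mcoln1, a calcium channel of the lysosome, -0.17, Scarb2, the receptor that carries glucocerebrosidase to the lysosome, -0.22, and the cholesterol transporter gene Npc1 -0.28. None of these passed. Npc1 ranged from 157 to 228 counts in tdTom+ and from 201 to 244 in tdTom- libraries, and each tdTom+ library was below its same-numbered one.

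Neither V-type ATPase subunit gene passed. Atp6v0d1, a subunit of the membrane sector, was at 95.8, 77.5 and 91.5 CPM in tdTom+ and 84.8, 57.4 and 75.01 CPM in tdTom- libraries. The ranges overlapped, replicate 2 was lowest in both groups, and each tdTom+ library exceeded its same-numbered one. Its fold change was 0.29 ± 0.15 on the log2 scale (SE, edgeR's adjusted p = 0.573). Atp6v1h, a subunit of the cytosolic sector, had a fold change of 0.01 and an interval from -0.21 to 0.22. Over all 37 lysosomal genes, 7 were higher in tdTom+ cells in all 3 same-numbered comparisons (18.9%, against 15.5% of all genes tested) and 5 lower in all 3 (13.5%, against 17.8%).

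Tfeb, the regulator, had 235, 207 and 206 counts in tdTom+ and 155, 191 and 193 in tdTom- libraries. Its levels of 20.6, 18.9 and 19.3 CPM overlapped with 15.04, 16.2 and 21.6 CPM, and the fold change of 0.16 ± 0.22 on the log2 scale (SE) did not pass (edgeR's adjusted p = 0.882). Members with the E-box core in their promoter included both genes that rose. The only Ctsl match, not of the flanked form, and 1 of the 2 Ctsd matches lie within the gene as GENCODE annotates it. Fold changes of the 12 members with the core had a median of 0.07 and ran from -0.17 to 0.53. Those of the 19 genes without it had a median of 0.02 and ran from -1.83 to 0.39. Above 0 were 9 of the 12 genes with the core and 11 of the 19 without it. A link between the core and the fold changes was not tested.

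Among 120 further genes of the lysosome, 119 were in the table and 109 were tested. Of these, Tfec rose, 0 fell, and the median fold change was 0.04. Tfec, a relative of Tfeb, was at 31.9, 19.96 and 38.0 CPM in tdTom+ and 10.5, 7.11 and 7.39 CPM in tdTom- libraries, which do not overlap. It rose 3.60-fold, by 1.85 ± 0.28 on the log2 scale (SE, edgeR's adjusted p = 0.00977), and its call ended without tdTom- replicate 2 (edgeR's adjusted p = 0.0658) or 3 (0.082). Mitf, with 12, 25 and 29 counts against 2, 11 and 5, did not pass (edgeR's adjusted p = 0.506), nor did Tfe3, at -0.001. Flcn, a regulator of these factors in nutrient sensing, had a fold change of 0.36 ± 0.15 (SE, edgeR's adjusted p = 0.432).

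None of the 17 further proton pump genes tested passed. Their median was 0.04, and Atp6ap1 and Atp6v1b2, the members with the smallest p, had fold changes of -0.18 and 0.19. Of 35 further hydrolases and cofactors 0 passed, with a median of 0.02. Acp5, the tartrate-resistant acid phosphatase that osteoclasts and macrophages make, was at 3.77, 14.3 and 4.67 CPM in tdTom+ and 1.75, 2.29 and 1.90 CPM in tdTom- libraries. Its groups did not overlap, tdTom+ replicate 2 stood far above the other libraries, and the fold change of 1.93 ± 0.58 on the log2 scale (SE) did not pass (edgeR's adjusted p = 0.178). Without tdTom+ replicate 2 it was 1.09. The sulfatase gene Ids had a fold change of -0.57 ± 0.18 (SE, edgeR's adjusted p = 0.216).

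Of 22 further membrane proteins and transporters 0 passed. Abca2, a lipid transporter of the lysosomal membrane, was close, with 16, 7 and 9 counts in tdTom+ and 79, 57 and 48 in tdTom- libraries and a fold change of -2.61 ± 0.58 on the log2 scale (SE, edgeR's adjusted p = 0.0585). It passed without the low-count filter (edgeR's adjusted p = 0.0452), with a minimum count of 30 (0.0323) and with DESeq2 (adjusted p = 0.00146). Laptm5, a lysosomal protein of blood cells, ranged from 904 to 1339 counts in tdTom+ and from 1180 to 1397 in tdTom- libraries, with a fold change of -0.26. Of 15 sorting genes 0 passed, with Sort1, the sorting receptor sortilin, at -0.50 ± 0.18 (SE, edgeR's adjusted p = 0.309) and Vps41 at 0.22. The cystatins, which inhibit cysteine cathepsins, had fold changes of -0.05 for Cst3 and 0.08 for Cstb, and Cst6 and Cst7 had too few counts to test.

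Marker genes of several cell types also differed between the fractions. Of 11 liver sinusoidal endothelial markers tested, 9 rose, while 0.769% of all genes tested rose. Their sum was 2509 to 2864 CPM in tdTom+ against 1032 to 1177 CPM in tdTom- libraries. The replicate block also gave 9, with F8 lost (edgeR's adjusted p = 0.0617) and Gata4 gained (0.0119). With the block, 2.24% of all genes tested passed in either direction. Of 10 megakaryocyte markers tested 5 rose, with sums of 227 to 439 against 27.7 to 46.1 CPM. With the block 8 rose, among them Gp9 (edgeR's adjusted p = 0.0189), Gp1bb (0.0246) and Ppbp (0.0218). Of 14 macrophage markers 13 were in the table, 9 were tested and 0 passed. Among those tested, 7 were above 0 in fold change and 2 below. Groups did not overlap for 3 with tdTom+ above (7.88% of all genes tested) and for 1 with tdTom+ below (9.35%). The macrophage sum was 36.8 to 43.3 CPM in tdTom+ and 22.7 to 31.6 CPM in tdTom- libraries, without overlap. The CD45 gene Ptprc, at 0, 0 and 4 against 19, 0 and 22 counts, and the CD11b gene Itgam, at 0, 4 and 6 against 12, 0 and 5 counts, were near 0 in both groups, while Csf1r had 57 to 81 against 39 to 52 counts. Of 8 erythroid markers 2 rose, with sums of 189 to 266 against 138 to 240 CPM. Hepatoblast and neural marker sums were lower in tdTom+ cells, without overlap. The hepatoblast sum was 29.7 to 50.1 against 59.4 to 254 CPM, with 5 of 5 markers tested below 0 in fold change and 0 passing. With the block Afp (edgeR's adjusted p = 0.00204) and Dlk1 (0.000865) fell. The neural sum was 40.8 to 53.3 against 64.2 to 69.1 CPM, with 3 of 4 markers below 0 in fold change, 1 above 0 and 0 passing. The lysosomal macrophage protein gene Cd68 had 22, 30 and 91 against 25, 53 and 34 counts. The part of these cell types in the levels of Ctsd, Ctsl and Lamp2 was not tested.

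**Figure D5:**
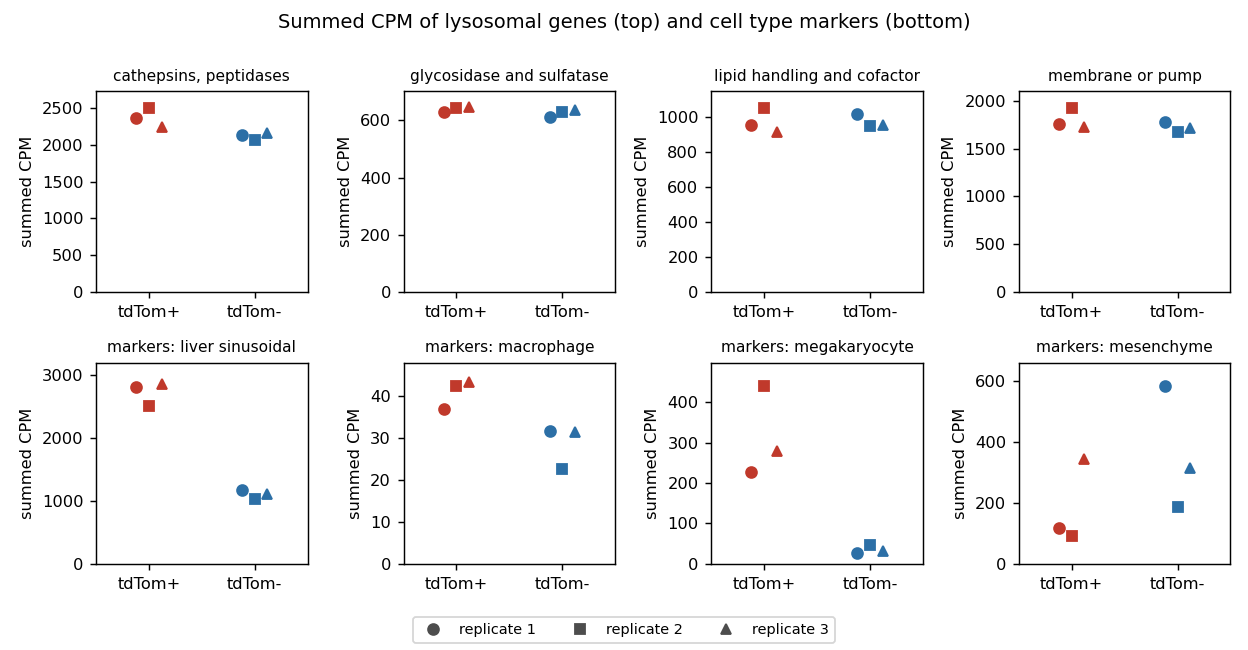
Summed CPM per library of the lysosomal genes by role (top) and of 4 marker lists (bottom), with symbols for replicates 1 to 3 and each axis starting at 0. The peptidase sum does not overlap between groups (2244 to 2500 against 2064 to 2157 CPM), the sums of the other 3 roles do, and the sinusoidal sum is 2509 to 2864 against 1032 to 1177 CPM.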

How the data were processed

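RNA of 6 libraries, 3 tdTom+ and 3 tdTom-, was measured after SMART-seq v4 amplification and Nextera XT library preparation, per the labels' protocols. The authors deposited 1 table with whole-number read counts per gene symbol, not normalized. Per the submitters' processing notes, the tools include the aligner STAR (2.5.2b), featureCounts (1.4.6) and DESeq2, with mm10 as the build. Beside the counts stand the authors' own comparison, a log2 fold change with its p-value for each gene, given as tdTom- over tdTom+, with the sign turned round here and checked against the counts. A further 6 per-library columns were not used. The kit does not mark strand, so that reads of overlapping genes on opposite strands cannot be told apart, and reads are not molecules, since the protocol names no molecular identifiers.

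Groups come from the titles. Genes were filtered with filterByExpr (minimum count 10), scaled with TMM and tested with edgeR 4.0.16 in R 4.3.3 (robust quasi-likelihood F-test, two-sided, no block, Benjamini-Hochberg over 13142 genes). An SE is the log2 fold change over the root of its F statistic, and the 95% intervals use the t distribution with the fit's degrees of freedom. A count floor of 3 was 0.254 to 0.336 CPM. Libraries of a group differed by more than sampling noise (mean chi-square per gene 8.18 to 19.7, where noise alone gives about 1). DESeq2 1.42.0, limma 3.58.1 (voom), other scalings and filters, the replicate block and leaving out each library were alternatives, and the procedure was tested on simulated data. Per the protocol each of 3 embryos gave cells to both fractions, while the labels tie no number to an embryo. After subtracting group means, same-numbered libraries correlated at r = 0.105, 0.0892 and 0.161 for numbers 1, 2 and 3. Libraries of different numbers correlated at r = -0.152 to 0.0598, below each of these values. The blocked value is given where it changed a call. Positions and transcript lengths are from GENCODE vM21 (mm10), with the shortest APPRIS principal transcript of each gene. All 37 genes are named, with values per library where a gene passed, did not overlap or had an unadjusted p under 0.05. Further lysosomal genes are named if they passed or had 1 of the 2 smallest p of their list, and others were chosen after their values were seen. Members and lists were chosen with earlier results of these data known.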

Additional observations from a re-analysis of the deposited data

How the results depend on the processing

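Ctsd and Ctsl kept their calls with RLE and upper-quartile scaling, without the low-count filter, with a minimum count of 30, with DESeq2, limma-voom and the replicate block, and Ctsk kept its call in all of these but limma-voom, where 0 lysosomal genes were lower. Leaving out 1 library at a time gave 0 to 2 lysosomal genes higher and 0 to 1 lower, 0 to 1 further lysosomal genes higher, and 37 to 97 genes higher and 25 to 92 lower over all genes tested. In these fits the members' median fold change ran from -0.03 to 0.05. With 13 alternatives each, the adjusted p ran from 5.92e-05 to 0.171 for Ctsd, from 9.89e-06 to 0.0899 for Ctsl, from 0.00121 to 0.244 for Ctsk and from 0.00618 to 0.273 for Lamp2, and no fold change of these 4 genes changed sign. DESeq2 called 211 genes higher and 291 lower over all genes, and 2 further lysosomal genes higher (Tfec and Acp5) and 1 lower (Abca2). Abca2 was also the 1 lower gene without the low-count filter and with a minimum count of 30, the latter with Ctss no longer tested. The replicate block gave 128 genes higher and 167 lower, and with Lamp2 it called 3 lysosomal genes higher and 1 lower. It changed no other call of a lysosomal gene. The cause of these changes was not tested. Counts of under 50 per library, as for Ctsk in tdTom+ cells, Ctss and Mitf, limit what can be detected.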
